A study of Mus musculus with 2 samples.

Results

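Central vein endothelium lines the terminal hepatic venule, into which the sinusoids of each liver lobule drain. Here it was taken as 165 barcodes of the sph/sph library and 122 of the sph/+ library, 287 of 29522 deposited barcodes. Members were chosen by measured values. A barcode, meant to stand for 1 droplet, had to have at least 500 detected genes and at least 1000 unique molecular identifiers (UMIs). At most 15% of its UMIs could come from mitochondrially encoded (mt-) genes. It also had to hold at least 3 UMIs of Rspo3, at least 2 of Vwf and at least 1 of Pecam1 and Cdh5 together. Members were 1.28% of the 12911 endothelial barcodes of sph/sph (95% Clopper-Pearson interval 1.09 to 1.49%) and 1.01% of the 12115 of sph/+ (0.837 to 1.20%). With every barcode thinned to 2000 UMIs before the rule was applied, the shares were 0.561% in sph/sph and 0.478% in sph/+, and with at most 10% mt- UMIs they were 1.07% and 1.08%.

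The libraries came from 1 adult mouse homozygous for the sphinx (sph) allele of Gimap5 and 1 adult heterozygous mouse, which carries the same allele on a single chromosome and served as the control. Both were on a C57BL/6 background. Viable (DAPI-negative) liver cells without CD45 and with CD31 (the protein of Pecam1) were sorted, so every value describes sorted endothelium, and no wild type library was analysed here. From each mouse 1 library was made with the 10x Genomics 3' chemistry (v3). Library and genotype cannot be told apart, and no test between genotypes was possible. Every interval covers counting error only, with barcodes taken as independent.

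Endothelium of the central vein secretes signals to the hepatocytes around it. Wnt2 and Wnt9b are Wnt ligands and Rspo3 is an R-spondin, a secreted protein that keeps Wnt receptors on the surface of the receiving cell, and together they hold pericentral hepatocytes in their zonal state. Von Willebrand factor, the product of Vwf, is stored by the endothelium of larger vessels and tethers platelets. The protein made from Gimap5 is a small GTPase needed for lymphocyte survival and present in endothelium, and sphinx is a missense allele of it.

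Members held 1154586 UMIs in sph/sph and 852885 in sph/+, with a median of 5372 UMIs and 2423 genes per sph/sph member and 5575.5 UMIs and 2420 genes per sph/+ member. The median mt- share was 7.04% in sph/sph members and 4.49% in sph/+ members. Of the deposited barcodes, 30 occurred in both libraries, 0 of them members. Many members came in pairs with near-equal counts within a library. For example, sph/sph members of 8778 and 9390 UMIs held 17 Rspo3 UMIs each and 19 and 17 Vwf UMIs. In sph/+, members of 7697 and 7806 UMIs held 54 and 49 Rspo3 and 29 and 33 Vwf UMIs. Whether such pairs are 1 droplet counted more than once was not tested. If they are, the member numbers are too high and the intervals too narrow. Doublet scoring placed 20 sph/sph members (12.1%) and 25 sph/+ members (20.5%) among the 13.5% and 10.8% of barcodes with the highest scores in their libraries, and they were kept. Ptprc, which encodes CD45, had 0 UMIs in the members of both libraries, which limits members with a Ptprc UMI, and not cells that express the gene, to 1.82% in sph/sph and 2.46% in sph/+.

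The label was checked with Wnt9b, which the rule did not use. Levels are given in CPM, the UMIs of a gene over a set of barcodes scaled to a total of 1000000. Wnt9b stood at 534 CPM in sph/sph members, against 13.4 CPM in the other sph/sph endothelial barcodes, and at 371 CPM in sph/+ members, against 15.7 CPM in the other sph/+ endothelial barcodes. It had at least 1 UMI in 115 sph/sph members (69.7%) and 87 sph/+ members (71.3%). At an equal depth of 2000 UMIs these shares were 49.1% (41.1 to 57.1%) and 44.6% (35.2 to 54.3%). Wnt9b had 0 UMIs in the 108 sph/sph and 89 sph/+ barcodes that carried hepatocyte, bile duct or stellate cell genes but no Pecam1 or Cdh5 UMI, called non-endothelial barcodes here. A count of 0 allows a UMI in up to 2.78% and 3.37% of these, and their median depths were 1636 and 8381 UMIs, against 5372 and 5575.5 UMIs in members. About as many members of either library carried Wnt9b. The sph/sph members with and without it differed in other vein genes. Wnt2 was at 180 CPM in the 50 members without a Wnt9b UMI and 656 CPM in the 115 with 1 or more. Thbd was at 689 and 1506 CPM, Selp at 703 and 108 CPM, and Nr2f2 at 491 and 482 CPM. In sph/+ the same split gave 652 and 931 CPM for Wnt2, 599 and 682 CPM for Thbd, and 111 and 230 CPM for Selp. The sph/+ members differed from the label in another respect. Stab2, a scavenger receptor that defines liver sinusoidal endothelial cells (LSECs), had a UMI in 7 sph/sph members (4.24%) and in 52 sph/+ members (42.6%), so the sph/+ set mixed barcodes with more and with less sinusoidal RNA. At equal depth those shares were 0.621% and 34.8%, against 0% and 4.94% in the non-endothelial barcodes. Barcodes under 2000 UMIs did not enter the equal-depth shares, which left out most sph/sph non-endothelial barcodes.

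Bile duct and hepatocyte RNA was concentrated in a few members. Only 2 sph/sph members and 7 sph/+ members held 10 or more UMIs of hepatocyte and cholangiocyte marker genes together, and those 7 held 97.7% of such UMIs in sph/+ members. The summed hepatocyte list stood at 113 CPM in sph/sph members and 2093 CPM in sph/+ members, and the cholangiocyte list at 13.0 CPM and 1135 CPM. All 14 measured hepatocyte markers and all 3 measured cholangiocyte markers were 2-fold lower in sph/sph members, and named genes that came from few barcodes are given with that number. Over all genes measured in members, 331 (7.57%) were 2-fold higher and 377 (8.63%) were 2-fold lower in sph/sph members, and without the members of 10 or more such UMIs the counts were 327 and 355. Leukocyte, erythroid and lymphatic lists were low, at 23.4, 12.1 and 373 CPM in sph/sph members and 50.4, 0 and 611 CPM in sph/+ members.

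Rspo3, on mouse chromosome 10 (GRCm38, 29452416 to 29535867, minus strand), chose the members, so its level is a description. It had 2414 UMIs, or 2091 CPM (95% Poisson interval 2008 to 2176), in sph/sph members and 2771 UMIs, or 3249 CPM (3129 to 3372), in sph/+ members. A single member held between 3 and 62 UMIs in sph/sph, with a median of 11, and between 3 and 66 in sph/+, with a median of 18. The level was 1.55-fold lower in sph/sph members (1.47 to 1.64). Vwf, on chromosome 6 (125546774 to 125686679, plus strand), also chose them and stood at 1399 CPM (1331 to 1469) in sph/sph members and 1210 CPM (1137 to 1286) in sph/+ members. Its per-member median was 7 UMIs, up to 35, in sph/sph and 6 UMIs, up to 33, in sph/+. The per-member ranges of both genes overlapped almost completely between the libraries, although the Rspo3 median was lower in sph/sph. The rule set the lower ends of these ranges, which were not scaled for depth, so the overlap is in part set by the rule.

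Wnt9b, on chromosome 11 (103727364 to 103749821, minus strand), had 617 UMIs, or 534 CPM (493 to 578), in sph/sph members and 316 UMIs, or 371 CPM (331 to 414), in sph/+ members. A single member held up to 22 UMIs in sph/sph, with a median of 2, and up to 13 in sph/+, with a median of 1. The level was 1.44-fold higher in sph/sph members (1.26 to 1.66). The difference was not seen in the members with 0 Stab2 UMIs. Among these, Wnt9b stood at 544 CPM in sph/sph and 556 CPM in sph/+. Wnt2 was lower in sph/sph members, at 540 CPM (498 to 584), than in sph/+ members, at 845 CPM (785 to 909), a 1.57-fold difference (1.41 to 1.75). It had a median of 2 UMIs per sph/sph member and 5 per sph/+ member. In the other endothelial barcodes Wnt2 was much further apart, at 48.6 CPM in sph/sph and 369 CPM in sph/+.

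**Figure D1:**
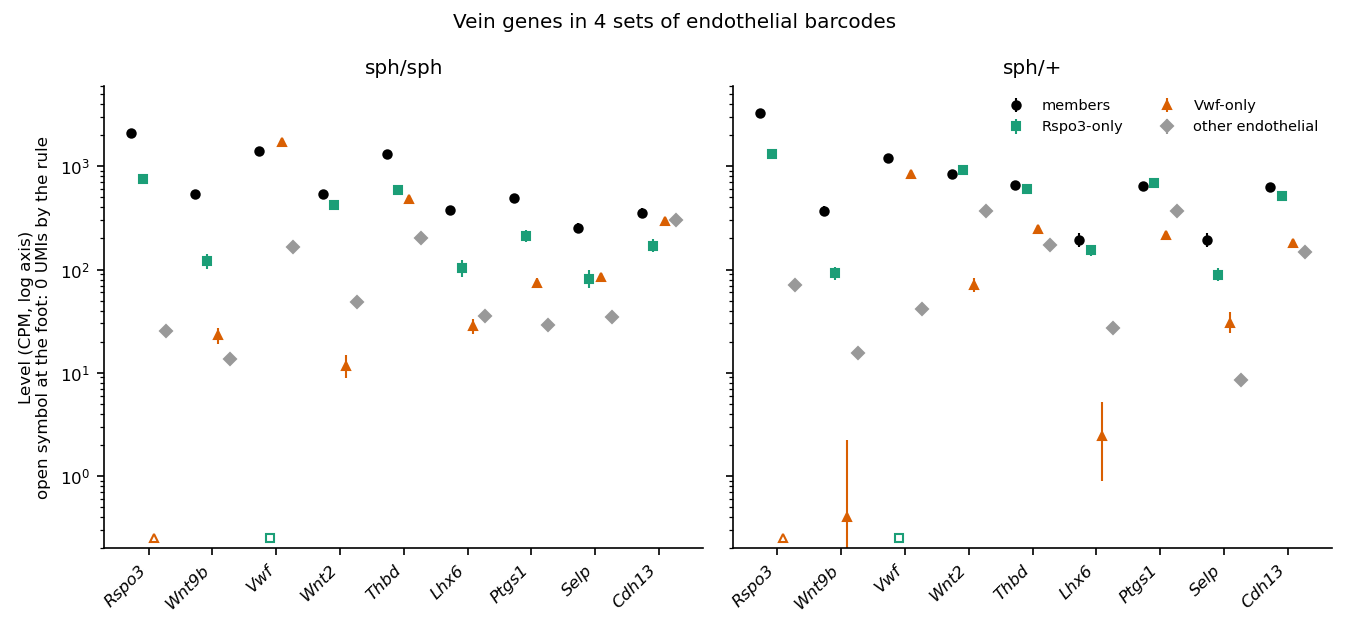
Levels of 9 vein genes in CPM on a log axis, with 95% Poisson intervals, in members, in Rspo3-only barcodes (Rspo3 at 3 or more UMIs, Vwf at 0), in Vwf-only barcodes (Vwf at 2 or more UMIs, Rspo3 at 0) and in other endothelial barcodes, with sph/sph on the left and sph/+ on the right. Wnt9b was at 534 CPM in sph/sph members and 371 CPM in sph/+ members, and open symbols mark genes set to 0 by the rule.

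Barcodes that met the rule in part had different vein genes. Rspo3-only barcodes, with at least 3 Rspo3 UMIs and 0 Vwf UMIs, numbered 118 in sph/sph and 386 in sph/+. Vwf-only barcodes, with at least 2 Vwf UMIs and 0 Rspo3 UMIs, numbered 995 in sph/sph and 384 in sph/+. Wnt9b stood at 121 CPM in Rspo3-only and 23 CPM in Vwf-only barcodes of sph/sph, and at 92.1 and 0.403 CPM in those of sph/+. Wnt2 followed the same order, with 426 and 11.5 CPM in sph/sph and 929 and 70.9 CPM in sph/+. Both ligands thus lay with Rspo3 rather than with Vwf in each library, and Wnt9b was higher in members than in either partial match. Lhx6, a LIM homeobox transcription factor, was at 103 and 28.1 CPM in sph/sph and 153 and 2.42 CPM in sph/+, the same order.

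Members just inside the thresholds, with exactly 3 Rspo3 or exactly 2 Vwf UMIs, numbered 32 in sph/sph and 22 in sph/+. Barcodes just outside, with 2 Rspo3 UMIs or 1 Vwf UMI, numbered 40 in sph/sph and 60 in sph/+. Wnt9b was at 258 CPM inside and 352 CPM outside in sph/sph, and at 156 and 204 CPM in sph/+. Clec4g, a lectin of LSECs, was at 264 CPM inside and 340 CPM outside in sph/sph, and at 2414 and 2215 CPM in sph/+. For Clec4g the values on both sides of the thresholds lay closer together than the libraries did.

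With Rspo3 and Vwf included, 92 of 3486 genes measured in both libraries (2.64%) were at least 2-fold higher in members than in the other endothelial barcodes of their own library, in both libraries, and 22 (0.631%) were at least 2-fold lower. Within sph/sph alone the shares were 6.84% higher and 6.21% lower, and within sph/+ alone 5.07% higher and 2.71% lower. Only genes at 50 CPM or more in 1 of the sets compared entered, and 5 CPM were added to both levels before log2 ratios were taken. Since the rule chose the barcodes, these counts describe the members and test nothing. The 12 genes that stood highest in both libraries were Rspo3, Cyp1b1, Wnt9b, Fndc1, Inhba, Samd5, Fmo2, Entpd1, Col6a3, Rnf165, Mras and Vwf. Their functions differ. Cyp1b1 and Fmo2 encode oxidizing enzymes, Entpd1 (CD39) breaks down extracellular ATP, Inhba makes a subunit of activin A, and Col6a3 a chain of collagen VI.

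Cyp1b1 was nearly absent outside the members. It stood at 316 CPM in sph/sph members against 1.25 CPM in the other sph/sph endothelial barcodes, and at 93.8 CPM in sph/+ members against 0.0328 CPM in the others. Between libraries it was 3.37-fold higher in sph/sph members (2.64 to 4.35). Fmo2 was alike in the members of both, at 556 CPM in sph/sph and 570 CPM in sph/+, against 48.9 and 10.5 CPM in the other endothelial barcodes. It had a UMI in 75 sph/sph and 61 sph/+ members, and 31.7% of its sph/+ UMIs lay in 5 of them. The sph/+ non-endothelial barcodes held 363 CPM of Fmo2. Entpd1 was at 338 CPM in sph/sph members and 151 CPM in sph/+ members, 2.23-fold higher (1.83 to 2.75), but within 2-fold among members with 0 Stab2 UMIs (log2 ratio 0.41), while other endothelial barcodes had 28.0 and 4.22 CPM.

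Inhba was unevenly spread over the members. It had 680 UMIs (589 CPM) in 66 sph/sph members and 71 UMIs (83.2 CPM) in 5 sph/+ members, where 38.0% lay in 1 barcode. The other endothelial barcodes had 3.83 CPM in sph/sph and 1.99 CPM in sph/+. Inhbb, the second activin subunit gene, was at 228 CPM in sph/sph members and 46.9 CPM in sph/+ members, 4.86-fold higher (3.47 to 6.95), and was spread over 89 sph/sph and 23 sph/+ members. The same gene was 2-fold lower in the other sph/sph endothelial barcodes, with a log2 ratio of −1.16. Fndc1 was at 225 CPM in sph/sph members and 141 CPM in sph/+ members, Samd5 at 99.6 and 83.2 CPM, Rnf165 at 67.6 and 111 CPM, and Mras, a Ras family GTPase, at 158 and 140 CPM. Of these 4, none was 2-fold apart between the libraries.

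**Figure D2:**
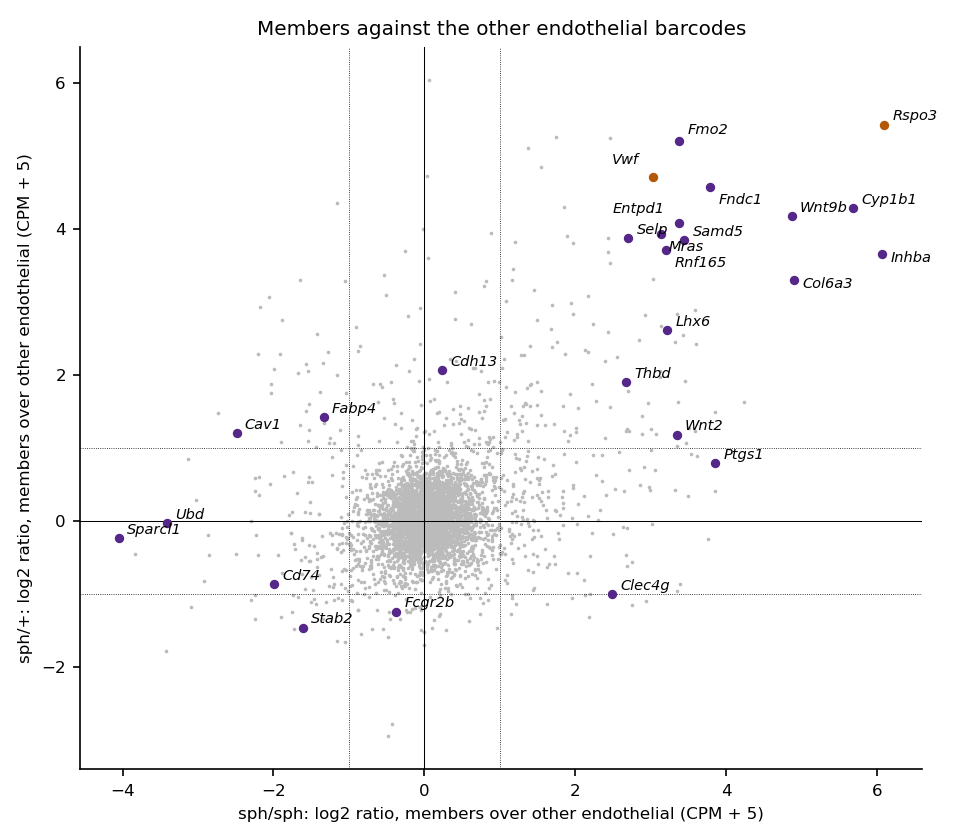
Log2 ratio of members over the other endothelial barcodes of the same library (5 CPM added) in sph/sph on the horizontal and sph/+ on the vertical axis, 1 grey point per gene measured in members, with dotted lines at 2-fold. Rspo3 and Vwf (orange) were used by the rule, and Wnt9b, Cyp1b1, Fmo2 and Inhba lie at the upper right with them, whereas Stab2 lies at the lower left and Clec4g at the lower right.

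How far a gene set the members apart also depended on its level in the surrounding endothelium. Ptgs1, the constitutive cyclooxygenase, stood at 492 CPM in sph/sph members against 29.2 CPM in the other endothelial barcodes, a 16.8-fold difference. In sph/+ it stood at 648 CPM against 371 CPM, a 1.75-fold difference. Fabp4, a fatty acid binding protein of venous and capillary endothelium, went the opposite way round. It was at 4324 CPM in sph/sph members against 10904 CPM in the others, and at 4983 CPM in sph/+ members against 1855 CPM in the others, so that it marked the members in sph/+ and not in sph/sph. Cdh13, which encodes T-cadherin, was at 356 CPM in sph/sph members against 302 CPM in the others, and at 634 CPM in sph/+ members against 147 CPM. Kit was no higher in members of either library, with 50.2 CPM against 56.0 CPM in the others in sph/sph and 225 CPM against 297 CPM in sph/+.

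Thbd and Lhx6 were the genes of the central vein list with the largest excess in sph/sph members. Thbd, which encodes the anticoagulant receptor thrombomodulin, was at 1306 CPM in sph/sph members and 657 CPM in sph/+ members, 1.99-fold higher (1.80 to 2.2). Its per-member median was 6 UMIs in sph/sph and 3 in sph/+. Lhx6 was at 376 CPM in sph/sph members and 192 CPM in sph/+ members, 1.95-fold higher (1.63 to 2.35), but among members with 0 Stab2 UMIs its log2 ratio was 0.40. Cdh13 was 1.78-fold lower in sph/sph members (1.56 to 2.03). It was more than 2-fold lower without the barcodes of high doublet score (−1.12), among members of at most 10000 UMIs (−1.09), at a depth of 2000 UMIs per member (−1.28), with equal weight per member (−1.10) and, at the border, with Wnt9b required (−1.0). Selp, the gene of P-selectin, was at 254 CPM in sph/sph members and 193 CPM in sph/+ members, with 43.3% of the sph/sph UMIs in 5 members, and it turned to a log2 ratio of −1.06 when a Wnt9b UMI was also required.

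Of the 16 measured genes of the central vein list, which holds 17 genes and includes Rspo3 and Vwf, 0 were 2-fold higher and 2 were 2-fold lower in sph/sph members, with a median log2 ratio of −0.30. Over all 4371 genes measured in members, 331 (7.57%) were 2-fold higher, 377 (8.63%) were 2-fold lower, and the median log2 ratio was −0.09. In the other endothelial barcodes the same vein list split into 6 genes 2-fold higher and 6 lower, with a median of 0.28, against 407 genes (9.31%) higher and 475 (10.9%) lower over all. Summed per member, the list had a median of 13010 CPM in sph/sph members, from 5378 to 25871, and of 18217 CPM in sph/+ members, from 5676 to 34872. Most of the range was shared, and 22 sph/+ members lay above the highest sph/sph member. The rule required Rspo3 and Vwf, so the counts, medians and sums of this list are a description. The 2 lower genes were Kit, a receptor tyrosine kinase, 4.48-fold lower (3.32 to 6.12), and Gatm, a creatine synthesis enzyme, at 24.3 CPM in sph/sph members and 318 CPM in sph/+ members, 13.1-fold lower (8.86 to 20.1). Among members with 0 Stab2 UMIs Gatm was within 2-fold, at a log2 ratio of −0.67.

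The Wnt system of the members was narrow. Of 22 Wnt ligands, R-spondins and secretion genes, 4 were measured (Rspo3, Wnt2, Wnt9b and Wls) and 16 had 0 UMIs in the members of each library. None of the 4 was 2-fold apart in members (background 7.57% higher and 8.63% lower). Wnt2 was more than 2-fold lower among members of at most 10000 UMIs (−1.10), at a depth of 2000 UMIs per member (−1.17) and with 0 Stab2 UMIs (−1.03), and Rspo3 with 0 Stab2 UMIs (−1.35). Over all members the median log2 ratio of the 4 was −0.58, against −1.44 with 3 lower in the other endothelial barcodes. Wls, which carries Wnt ligands to the cell surface, was at 116 CPM in sph/sph members and 169 CPM in sph/+ members, 1.45-fold lower (1.14 to 1.85). The list includes Rspo3, which the rule required, so its count and median are a description and its sum over members is not given.

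Among 40 Wnt receptors, inhibitors and targets, 11 were measured in members, 2 were 2-fold higher in sph/sph and 1 was 2-fold lower, with a median log2 ratio of 0.53. Frzb, a secreted Wnt antagonist, was at 121 CPM in sph/sph members and 11.7 CPM in sph/+ members, 10.3-fold higher (5.46 to 22.0), with UMIs in 61 sph/sph and 10 sph/+ members. It stayed under 2-fold in the other endothelial barcodes, at a log2 ratio of 0.32. Myc was at 58.0 CPM in sph/sph members and 4.69 CPM in sph/+ members. The co-receptor Lrp6 was 2.75-fold lower (2.03 to 3.75), though within 2-fold among members with 0 Stab2 UMIs (−0.88), at 57.2 CPM in sph/sph members and 157 CPM in sph/+ members, while its relative Lrp5 was at 122 and 83.2 CPM. The receptors Fzd4 and Fzd6, the pathway's own inhibitor Nkd1, and Ctnnb1, Tcf7l1, Tcf7l2 and Ccnd1 had log2 ratios between −0.66 (Fzd4) and 0.87 (Ccnd1). Ccnd1 passed 2-fold under other settings, at 1.68 without the barcodes of high doublet score, 2.61 among members of at most 10000 UMIs and 4.21 among members with 0 Stab2 UMIs.

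**Figure D3:**
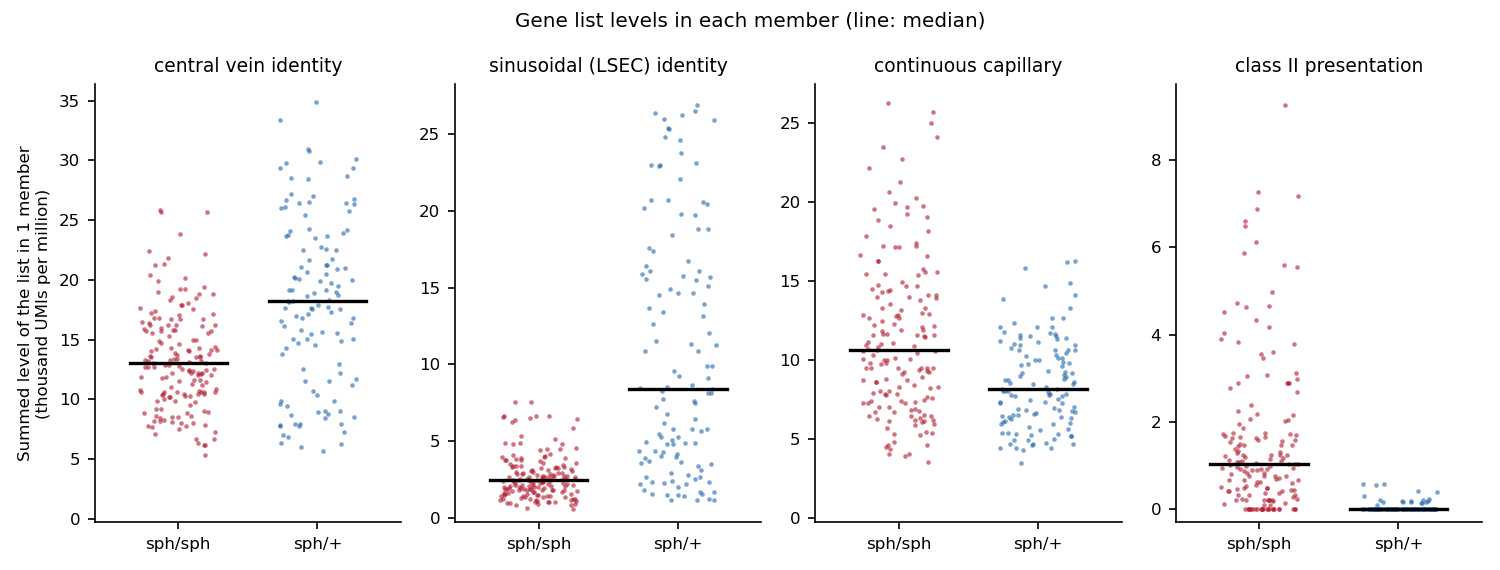
Summed level of 4 gene lists in each member, in CPM divided by 1000, sph/sph in red on the left of each panel and sph/+ in blue on the right, with black lines at the medians. LSEC identity spans 586 to 7583 CPM in sph/sph members and reaches 26936 CPM in sph/+ members, and 103 of the 122 sph/+ members have 0 class II UMIs. The central vein list includes Rspo3 and Vwf, which the rule required.

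LSEC genes were far lower in sph/sph members. Of 21 measured LSEC genes, 18 were 2-fold lower in sph/sph members and 0 higher. Their median log2 ratio was −2.38, against 20 lower and a median of −5.12 in the other endothelial barcodes. Summed per member, the list had a median of 2449 CPM in sph/sph members, up to 7583, and of 8410 CPM in sph/+ members, up to 26936, and 67 of the 122 sph/+ members lay above every sph/sph member. Stab2 was at 8.66 CPM in sph/sph members and 474 CPM in sph/+ members, 54.7-fold lower (29.4 to 115). Fcgr2b, the inhibitory Fc receptor with which LSECs clear immune complexes, had 1 UMI in sph/sph members and 798 in sph/+ members, a 1080-fold lower level with an interval from 193 to 42722. Dnase1l3 was 126-fold lower (71.8 to 245), and the mannose receptor gene Mrc1 34.7-fold lower (23.3 to 54.0).

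The sph/+ members fell into 70 with 0 Stab2 UMIs and 52 with at least 1, a division made after the data were seen and used for description only. Those with Stab2 had a median of 10052.5 UMIs against 4634 UMIs in those without. They had less of the vein genes, with Rspo3 at 1752 CPM against 5411 CPM, Wnt9b at 242 against 556 CPM and Vwf at 738 against 1892 CPM. The rule set the same minimum of Rspo3 and Vwf UMIs at any depth, and so a higher minimum level in shallower barcodes. The difference in these genes is therefore in part set by the rule. Those with 0 Stab2 UMIs were not free of sinusoidal RNA, and the lowest LSEC list sum in any sph/+ member was 1143 CPM. Members with Stab2 had more of it, with Fcgr2b at 1482 CPM against 146 CPM and Clec4g at 2510 against 851 CPM. The members with Stab2 were deeper and the sph/+ members had more of the high doublet scores, and the part of doublets and of free RNA in these values was not tested.

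With only the members that had 0 Stab2 UMIs, 158 in sph/sph and 70 in sph/+, several values moved. The median log2 ratio of the LSEC list was −0.96, against −2.38 over all members. Rspo3 moved to −1.35, Wnt2 to −1.03 and Cdh13 to −1.36, all 2-fold lower in sph/sph members, while Wnt9b was at −0.03 and Thbd at 0.68. Vwf changed sign, to −0.36. Fcgr2b kept a log2 ratio of −4.67, Dnase1l3 of −4.10 and Mrc1 of −3.90. The number of genes 2-fold higher was 408 and of those lower was 389, of which 250 and 188 were shared with the sets over all members.

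Gata4, Nr2f2 and the median of the endothelial transcription factor list were less far apart in members than outside them. Gata4, which specifies the discontinuous LSEC type, was at 198 CPM in sph/sph members and 251 CPM in sph/+ members, 1.27-fold lower (1.05 to 1.53), but at 26.5 CPM in the other sph/sph endothelial barcodes and 270 CPM in the other sph/+ ones. Maf was at 111 CPM in sph/sph members and 1311 CPM in sph/+ members, 11.8-fold lower (9.84 to 14.3). Nr2f2, the venous factor COUP-TFII, was alike in members, at 484 CPM in sph/sph and 469 CPM in sph/+, and differed outside, at 150 and 710 CPM. Of 16 measured endothelial transcription factors, 1 was 2-fold higher (Tcf15, at 52.0 CPM in sph/sph members and 3.52 CPM in sph/+ members) and 2 were lower (Maf and Ets2, the second within 2-fold among members with 0 Stab2 UMIs, at −0.47). Over all measured genes 7.57% were higher and 8.63% lower. The median log2 ratio of the transcription factors was −0.27 in members and −0.58 in the other barcodes.

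Several sinusoidal or zonal genes were less far apart between the libraries in members than in the rest of the endothelium. Cyp26b1 and Masp1 were within 2-fold in members, and Bmp2, Plxnc1 and Oit3 were more than 2-fold lower in sph/sph members. Cyp26b1, which breaks down retinoic acid, was at 297 CPM in sph/sph members and 417 CPM in sph/+ members, against 24.6 and 813 CPM in the other endothelial barcodes. Masp1, a complement lectin pathway protease, was at 239 and 227 CPM in members, against 13.0 and 272 CPM. Bmp2, which instructs hepatocytes to make hepcidin, was 2.80-fold lower in sph/sph members (2.48 to 3.17), at 333 CPM against 932 CPM in sph/+ members, but within 2-fold among members with 0 Stab2 UMIs (−0.55), and at 39.1 and 1993 CPM in the others. Plxnc1 and Oit3 had log2 ratios of −1.74 and −1.97 in members, and of −5.64 and −5.47 in the others, and among members with 0 Stab2 UMIs they were at −0.89 and −0.18. Together with Ackr1, described below, these were the 6 genes whose ratio in members most exceeded that in the other endothelial barcodes.

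**Figure D4:**
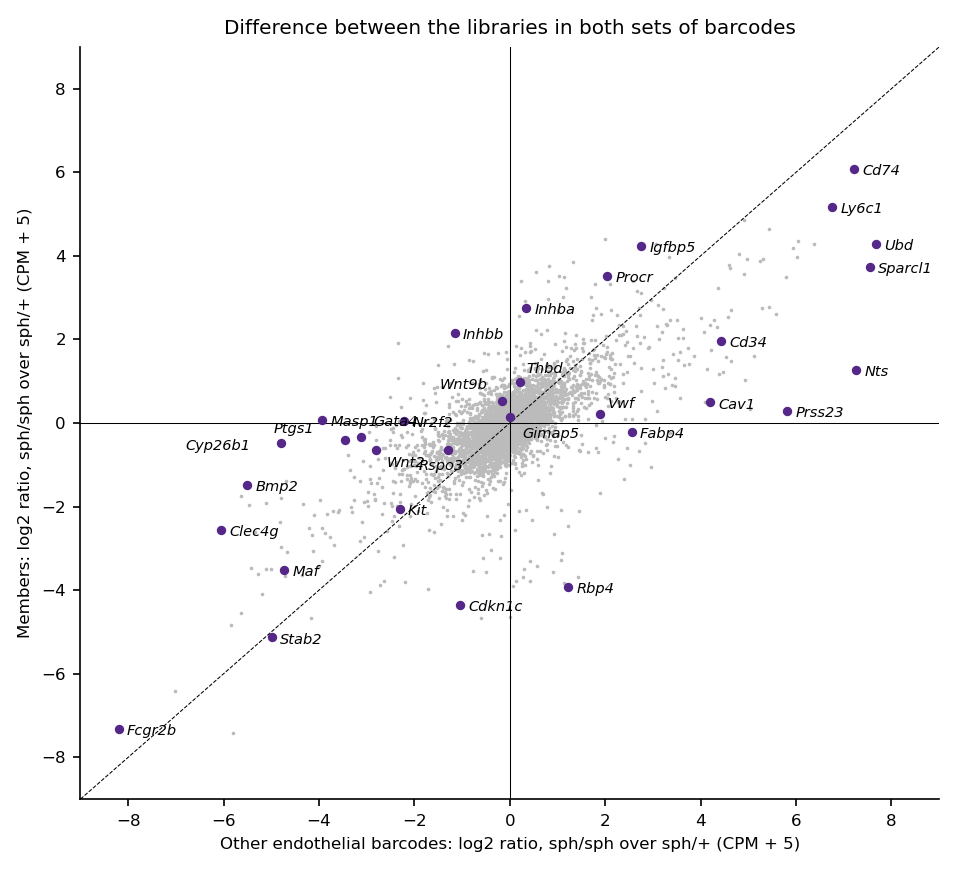
Log2 ratio of sph/sph over sph/+ (5 CPM added) in the other endothelial barcodes on the horizontal axis and in members on the vertical axis, 1 grey point per gene measured in members, with the dashed line at equal ratios. Cyp26b1, Masp1, Nr2f2 and Gata4 lie near 0 in members and far to the left outside them, and Prss23, Cav1 and Fabp4 near 0 in members and far to the right, with Nts at 1.27 in members and 7.26 outside.

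On the opposite side, some genes that were high over other sph/sph endothelium were close to equal in the members. Prss23, a secreted protease, was at 183 CPM in sph/sph members and 148 CPM in sph/+ members, a ratio of 1.24 (0.987 to 1.55), and had a log2 ratio of 5.81 in the other endothelial barcodes. Rassf9 was at 275 and 217 CPM, with a log2 ratio of 0.34 in members and 5.03 in the others. Cav1, which forms caveolae, was at 147 and 103 CPM in members and at 850 and 41.9 CPM in the others. Nts, which encodes neurotensin, was 2.42-fold higher in sph/sph members (2.17 to 2.69), at 1278 CPM against 529 CPM in sph/+ members, and at 1229 and 3.07 CPM in the others. The sph/sph non-endothelial barcodes held 1008 CPM of Nts, and 67.0% of the sph/+ member UMIs lay in 5 barcodes. Without the barcodes of high doublet score the log2 ratio of Nts was 0.51. In all, 407 of 4371 measured genes (9.31%) were 2-fold higher in the other sph/sph endothelial barcodes, and 178 of these were within 2-fold in members. Another 475 (10.9%) were lower there, and 267 of these were within 2-fold in members.

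Markers of continuous capillaries were higher in sph/sph members, by less than around them. Of 21 measured, 9 were 2-fold higher and 2 lower, with a median log2 ratio of 0.96, against 13 higher, 0 lower and a median of 1.66 in the other endothelial barcodes. The list summed to a median of 10614 CPM per sph/sph member and 8141 CPM per sph/+ member, with broad overlap. Cd34 was at 252 CPM in sph/sph members and 61.0 CPM in sph/+ members, 4.13-fold higher (3.07 to 5.67), against 693 and 27.5 CPM in the others. Ly6c1, a surface antigen of capillary endothelium, was at 730 and 15.2 CPM in members, 47.9-fold higher (27.9 to 90.3), and was carried by 107 sph/sph and 2 sph/+ members. Tmem252 had 139 UMIs in sph/sph members and 0 in sph/+ members, at least 34.2-fold higher when 3 UMIs over all sph/+ members are taken as the limit. Apln had 85 UMIs and 0, at least 20.9-fold higher, and its receptor gene Aplnr had 198 and 6 UMIs. Sparcl1 had 71 UMIs in sph/sph members and 0 in sph/+ members, while the other sph/sph endothelial barcodes reached 1097 CPM.

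Antigen presentation and interferon-inducible genes were higher in sph/sph members, class II genes most of all. All 6 measured class II genes were 2-fold higher and the median log2 ratio was 4.24, against 5.99 in the other endothelial barcodes. Cd74, whose product chaperones class II molecules, stood at 654 CPM in sph/sph members and 4.69 CPM in sph/+ members, 139-fold higher (54.2 to 513). Of the class II chain genes, H2-Ab1 was at 346 CPM in sph/sph members and 12.9 CPM in sph/+ members, H2-Eb1 at 264 and 8.21 CPM, and H2-Aa at 213 and 7.03 CPM. Summed per member, class II genes reached 9269 CPM in sph/sph and 575 CPM in sph/+, and 110 sph/sph members lay above every sph/+ member. The sph/sph non-endothelial barcodes held 421 CPM of Cd74, less than members did, while its share of barcodes with a UMI was 63.0% in sph/sph members (37.9% at equal depth) and 37.0% in those barcodes (39.4% at equal depth). At equal depth the share in members was thus no higher, and the part of free RNA in these values was not tested.

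Of 25 measured interferon response genes, 20 were 2-fold higher in sph/sph members and 0 lower, with a median log2 ratio of 2.07, against 22 higher and a median of 2.41 in the other endothelial barcodes. Iigp1 and Igtp, interferon-inducible GTPases, were at 1904 and 758 CPM in sph/sph members and at 117 and 76.2 CPM in sph/+ members, 16.2-fold (13.3 to 20) and 9.94-fold (7.72 to 13.0) higher. Zbp1, a nucleic acid sensor, was at 275 and 4.69 CPM. Iigp1 was at 1308 CPM in sph/sph non-endothelial barcodes. The chemokine gene Cxcl9 was at 313 CPM in sph/sph members and 43.4 CPM in sph/+ members, under the 606 CPM of the sph/sph non-endothelial barcodes. Ubd had 107 UMIs (92.7 CPM) in sph/sph members and 0 in sph/+ members, also under the 157 CPM of the sph/sph non-endothelial barcodes. For both, the level in members did not exceed that in non-endothelial barcodes, but Cxcl9 was uneven, with 113 of 361 UMIs in the 7 sph/sph members that held Stab2. Of 16 class I genes, 9 were 2-fold higher and 0 lower, with a median of 1.04, among them Tap1 (4.77-fold, 3.70 to 6.23) and Psmb9 (3.27-fold, 2.64 to 4.08).

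Of 11 measured adhesion and chemokine genes, 7 were 2-fold higher in sph/sph members and 0 lower. The list summed to 2754 CPM in sph/sph members and 1351 CPM in sph/+ members, against 3458 and 852 CPM in the non-endothelial barcodes, so in sph/sph its level was no higher than in those. Sele, the gene of E-selectin, had 116 UMIs in 46 sph/sph members and 2 UMIs in 2 sph/+ members, a ratio of 42.8 (11.6 to 358), and was at 0 CPM in the non-endothelial barcodes of both libraries, as was Ackr1. Its log2 ratio was 3.84 in members and 1.33 in the other endothelial barcodes. Ackr1, the venular chemokine receptor that captures chemokines for transport, had 62 UMIs in 22 sph/sph members and 9 UMIs in 7 sph/+ members, 5.09-fold higher (2.51 to 11.6). In the other endothelial barcodes it was at 0.577 CPM in sph/sph and 23.2 CPM in sph/+, which is the opposite direction. Ccl2 had 92 UMIs and 1 UMI, a ratio of 68.0 (11.9 to 2713), and stood at 79.7 CPM in sph/sph members against 13.9 CPM in the sph/sph non-endothelial barcodes. Cxcl1 had 72 UMIs in sph/sph members, 93.1% of them in 5 barcodes, and 0 in sph/+ members. Its 62.4 CPM in sph/sph members was close to the 60.1 CPM of the sph/sph non-endothelial barcodes.

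Single genes of coagulation and of vessel tone stood apart in both directions, while most of both lists stayed within 2-fold. Procr, the endothelial protein C receptor, was at 337 CPM in sph/sph members and 24.6 CPM in sph/+ members, 13.7-fold higher (8.83 to 22.4), and together with Thbd it belongs to the protein C anticoagulant pathway. F8, clotting factor VIII, was 3.73-fold lower (3.17 to 4.39), at 179 CPM against 668 CPM. The other 9 of 11 measured coagulation genes were within 2-fold. Ednrb, the endothelin B receptor, was at 1410 CPM in sph/sph members and 426 CPM in sph/+ members, 3.31-fold higher (2.95 to 3.72), and was carried by 149 sph/sph and 65 sph/+ members, with 45.5% of the sph/+ UMIs in 5 of them. Nos3, endothelial nitric oxide synthase, was 1.87-fold higher (1.47 to 2.39). Npr1, the natriuretic peptide receptor, was 2.72-fold lower (2.2 to 3.37), at 117 CPM against 318 CPM. Of 12 measured vasoactive genes, 2 were 2-fold higher and 1 lower. Over all measured genes 7.57% were higher and 8.63% lower, and with so few genes neither list is set apart from these shares.

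Other signalling lists differed in how many of their genes stood apart. Over all measured genes 7.57% were 2-fold higher and 8.63% lower in sph/sph members. Of 11 shear-responsive genes, 4 were 2-fold higher in sph/sph members (Nqo1, Cyp1b1, Klf6 and, within 2-fold at a depth of 2000 UMIs per member, Hmox1) and 0 lower, with a median log2 ratio of 0.87 against 0.21 in the other barcodes. Of 12 angiocrine genes, 5 were higher and 1 lower. Igfbp5, an insulin-like growth factor binding protein, was at 972 CPM over 90 sph/sph members and at 46.9 CPM in 2 sph/+ members, 20.7-fold higher (15.1 to 29.2), while Igfbp4 was 3.75-fold lower (3.25 to 4.34). Of 13 BMP pathway genes, 2 were lower, Bmp2 and Id2. Of 7 Notch genes, 1 was higher (Nrarp, a Notch target) and 2 lower (Lfng, at 21.7 CPM in sph/sph members and 118 CPM in sph/+ members, and Dll4). Dll4, Efnb2 and Cldn5, genes of arterial or capillary endothelium, changed direction among members with 0 Stab2 UMIs, to log2 ratios of 1.43, 0.59 and 1.75.

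Of 21 measured matrix genes, 9 were 2-fold higher in sph/sph members and 3 lower, with a median log2 ratio of 0.88 against 1.54 in the other barcodes. Lamc1, a laminin chain of basement membrane, was at 199 CPM in sph/sph members and 49.2 CPM in sph/+ members, 4.05-fold higher (2.90 to 5.76), and Col18a1 was at 61.5 and 4.69 CPM. Col6a3, which the matrix list does not hold, was 3.06-fold higher (2.18 to 4.37), with 53.4% of its sph/sph UMIs in 5 members, and within 2-fold (log2 ratio 0.88) among members of at most 10000 UMIs. Mgp, an inhibitor of vessel calcification, was 4.59-fold lower in sph/sph members (3.48 to 6.14), at 57.2 CPM against 263 CPM, and 2-fold higher in the other sph/sph endothelial barcodes. Of 12 arterial and portal genes, 2 were higher and 6 lower, and of 20 venous genes, 4 were higher and 3 lower. Over all measured genes 7.57% were higher and 8.63% lower. The arterial and portal median log2 ratio was −1.06, and it ran from −1.50 to −0.12 over the settings tried.

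Pan-endothelial genes were close to equal in their median log2 ratio, −0.02. Of 23 measured, 5 were 2-fold lower in sph/sph members and 0 higher, against 8.63% lower and 7.57% higher over all measured genes. The lower ones were led by Clec14a, Cldn5, Ptprb and Tek, each 2.58 to 3.13-fold lower. Cldn5 changed direction among members with 0 Stab2 UMIs, to a log2 ratio of 1.75. Gimap5, on chromosome 6 (48746197 to 48754210, plus strand), was at 91.8 CPM (75.2 to 111) in sph/sph members and 83.2 CPM (65.0 to 105) in sph/+ members. The ratio of 1.10 (0.809 to 1.51) has an interval that includes 1, and a missense allele need not lower the transcript. Of 6 measured Gimap genes, 0 were 2-fold apart. Cell cycle genes were higher in sph/sph members, and 3 of 4 measured were 2-fold higher. The members with 2 or more UMIs of Mki67 and Top2a together were 9 in sph/sph (5.45%) and 0 of 122 in sph/+, which allows such UMIs in up to 2.46% of members. Among the other endothelial barcodes those shares were 7.45% in sph/sph and 1.35% in sph/+. Mki67 had 60 UMIs in sph/sph members, at least 14.8-fold more than in sph/+ members, where it had 0.

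**Figure D5:**
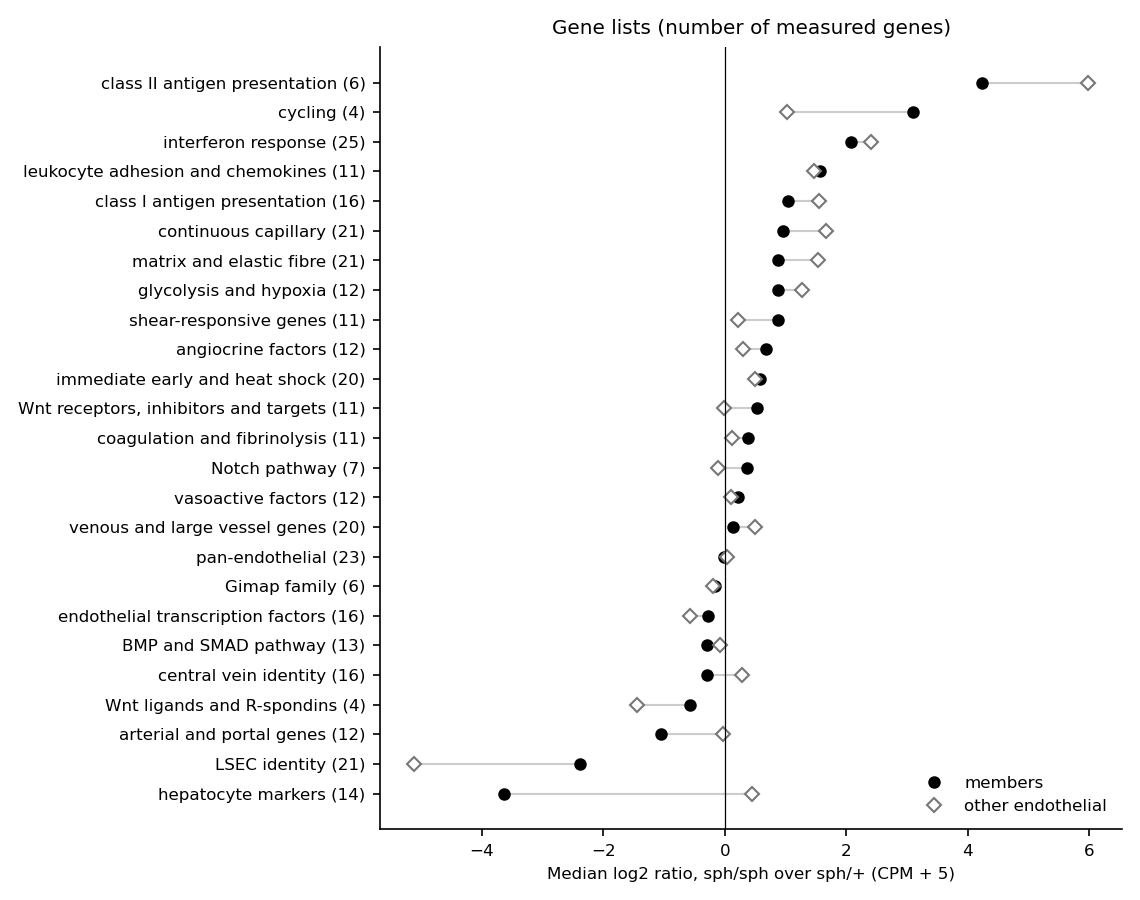
Median log2 ratio of sph/sph over sph/+ (5 CPM added) for gene lists with at least 4 measured genes, in members (black circles) and in the other endothelial barcodes (open diamonds), with the number of measured genes in brackets. Class II presentation has the highest median in members at 4.24 and LSEC identity is at −2.38, while hepatocyte markers are at −3.63, with the sph/+ UMIs almost wholly in 7 members.

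Immediate early and heat shock genes, which respond to tissue handling, were slightly higher in sph/sph members. They made up 0.982% of sph/sph member UMIs and 0.719% of sph/+ member UMIs, and 4 of 20 were 2-fold higher, among them Nr4a1 (8.21-fold, 4.99 to 14.4) and Hspa1a (6.05-fold, 3.59 to 10.9). Of 12 glycolysis and hypoxia genes, 2 were higher and 1 lower, against 7.57% and 8.63% over all measured genes. The part of handling in the other differences was not tested.

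The extremes of the whole comparison came mostly from the groups above. The 12 genes highest in sph/sph members were Cd74, Ly6c1, Zbp1, Tmem252, Tmem108, H2-Eb1, H2-Ab1, Tubb3, Ubd, Igfbp5, H2-Aa and H2-DMa. Tmem108 was further apart in members than outside, at 225 CPM over 89 sph/sph members and 5.86 CPM over 3 sph/+ members, with a log2 ratio of 4.41 in members and 2.0 in the others. Tubb3, a neuronal tubulin gene, had 107 UMIs in sph/sph members and 0 in sph/+ members. The 12 lowest were Fcgr2b, Dnase1l3, Stab2, Mrc1, Slc43a2, Aass, Cdkn1c, Msr1, Tm4sf4, Rbp4, Ldhb and Enpp6. Cdkn1c, an inhibitor of the cell cycle, had 2 UMIs in sph/sph members and 113 in 59 sph/+ members, a 76.5-fold lower level (20.7 to 639), with a log2 ratio of −4.35 in members and −1.05 outside, and it was as low among members with 0 Stab2 UMIs (−4.34). Tm4sf4 came from 5 sph/+ members and Rbp4 from 2, and the non-endothelial barcodes held 2293 CPM of Tm4sf4 in sph/+ and 6024 CPM of Rbp4 in sph/sph. The division by Stab2 fixes Stab2 itself, and Msr1 was within 2-fold among members with 0 Stab2 UMIs, at −0.64.

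Agreement between members and the rest of the endothelium was partial. Of the genes 2-fold higher in sph/sph members, 217 were also 2-fold higher in the other sph/sph endothelial barcodes, and of those lower, 202 were also lower. Outside these, 108 genes were 2-fold higher in members and within 2-fold in the others, and 163 were lower in members and within 2-fold in the others. Only 18 genes (0.412%) were 2-fold apart in opposite directions. At 8-fold, 41 genes were higher and 47 lower in sph/sph members, against 79 and 58 in the other endothelial barcodes. Both sets were summed from the same pair of libraries and so share any difference between them.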

How the data were processed

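The authors deposited each of 2 libraries as a matrix of raw UMI counts, not normalized. Per the submitters' processing notes the authors used Cell Ranger 3.0 with mm10, while the file headers name version 3.1.0. The annotation release is not given in the sources used here. Of 31053 gene IDs, 30934 matched GENCODE M21, from which GRCm38 positions were taken, and rows that share a symbol (36 symbols) were summed. Raw counts were summed over the members of each library and scaled to CPM by their total UMIs. With 1 mouse per genotype no test was run, and at least 2-fold on the log2(CPM + 5) scale is called higher or lower. Shares have Clopper-Pearson, levels Poisson and ratios binomial exact 95% intervals. A count of 0 was given a limit of 3 UMIs. Scrublet (scanpy 1.11.5) gave every barcode a doublet score. Its automatic threshold marked 0%, so the highest scores at 0.8% per 1000 barcodes were marked and left in. Python 3.11.15, numpy 2.4.6, scipy 1.17.1 and pandas 2.3.3 were used, and the sums were tested on simulated data.

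Members, gene lists (31) and named genes were chosen with earlier results of these data known. Named are 24 genes set whatever their values, the 12 highest and 12 lowest ratios in members, the 12 highest above other endothelium in both libraries, the 6 largest excesses and 6 largest deficits against the ratio in other endothelium, up to 4 genes per list with the largest ratio, and measured Wnt genes. Left out of the ranked sets were listed markers of non-endothelial types and genes that are mitochondrial, ribosomal, sex-linked or without a name, or that encode globins or antibodies. In total 16 alternatives were run, 2 of them chosen after seeing the data.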

Additional observations from a re-analysis of the deposited data

Results flagged for a closer look

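The genes below were at least 2-fold apart between the libraries in members and at least 2-fold apart in the opposite direction in the other endothelial barcodes. Log2 ratios are sph/sph over sph/+, the difference between the sets was not tested, and with 1 library per genotype it has no replicate check.

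Ackr1 had a ratio of 1.92 in members and −2.34 in the others, Inhbb of 2.17 and −1.16, and Rgs5, a gene of pericytes that the non-endothelial barcodes also hold (430 CPM in sph/sph and 98.4 CPM in sph/+), of 1.85 and −1.29. Mgp had a ratio of −2.11 in members and 1.46 in the others, with 90.9% of its sph/sph member UMIs in 5 barcodes. Fxyd6 had a ratio of −1.06 in members and 2.95 in the others, with UMIs in 27 sph/sph and 33 sph/+ members. Rbp4 (−3.92 and 1.22), Rgn (−3.27 and 1.07) and Apoa2 (−3.82 and 1.13) are hepatocyte genes, and their member ratios turn positive or close to 0 without the few sph/+ members that hold hepatocyte and bile duct RNA.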

How the results depend on the processing

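No paired analysis was possible because each genotype is 1 library and no test was run. Of 331 genes higher and 377 lower in sph/sph members, a floor of 20 CPM in place of 50 gave 553 and 731, one of 100 CPM gave 198 and 206, and none gave 845 and 1168. The 92 genes above other endothelium in both libraries became 60 with the floor at 100 CPM and 178 without one. Under the other alternatives these counts stayed between 296 and 493, 308 and 565, and 80 and 126. Scaling by the median ratio gave 392 higher and 308 lower. The share of members in sph/sph and sph/+ was 0.991% and 0.792% under a stricter rule, 1.63% and 1.57% under a looser one, 0.891% and 0.718% with Wnt9b required, and 0.561% and 0.478% with every barcode thinned. With mt- at most 10% it was 1.07% in sph/sph and 1.08% in sph/+, which ends the order of the libraries. In sph/+ it was 0.820% with at most 10000 UMIs and 0.578% with 0 Stab2 UMIs.

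Log2 ratios within 2-fold changed sign for endothelial genes too, among them Vwf (to −0.36), Prss23 (−0.51), Rassf9 (−0.46) and Wnt9b (−0.03) with 0 Stab2 UMIs, and Selp (−1.06) with Wnt9b required. Of ratios past 2-fold, these changed sign. Under the stricter rule Rbp4 was at 0.70, Cyp2e1 at 0.27 and Apoa2 at 0.96. With Wnt9b required Rbp4 was at 0.76, Cyp2e1 at 0.30, Apoa2 at 1.19, Rgn at 0.30, Clu at 1.53, Ttr at 0.091 and Krt8 at 0.12. With at most 10000 UMIs Rbp4 was at 1.10, Apoa2 at 0.51, Rgn at 0.36, Clu at 1.10, Krt8 at 0.65 and the stellate list, of 1 measured gene, at −2.20 (−0.30 with no floor). Without the members of 10 or more hepatocyte and cholangiocyte UMIs Rbp4 was at 0.77, Cyp2e1 at 0.23, Apoa2 at 0.76, Clu at 0.95, Ttr at 0.31 and Krt8 at 0.10. Among members with 0 Stab2 UMIs Rbp4 was at 1.09, Cyp2e1 at 0.25, Apoa2 at 0.76, Clu at 0.44, Ttr at 0.56, Krt8 at 0.46, Dll4 at 1.43, Efnb2 at 0.59, Cldn5 at 1.75 and Flt4 at 0.51. The cause was not tested. The last pair of settings was chosen after seeing the data. Of the other values for single genes and lists, sign changes within 2-fold included, 2250 moved by less than their counting interval, or by under 0.5 for a list, and 568 by more. A count of 0 over the members allows up to 2.60 CPM in sph/sph and 3.52 CPM in sph/+.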
